A study of Mus musculus with 36 samples.

Results

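The SR splicing factor genes Srsf1, Srsf2, Srsf3, Srsf4, Srsf5, Srsf6, Srsf7, Srsf9, Srsf10 and Srsf11 were measured in mouse embryonic stem cells (mES cells) with SLAM-seq. These 10 genes were chosen by name, and all 10 were among the 18419 genes listed in all 6 tables. SLAM-seq marks RNA made during a pulse of 4-thiouridine (4sU), which is read as a T-to-C mismatch after alkylation with iodoacetamide. The study used it to ask how Xist RNA is turned over when METTL3, YTHDC1 or ZCCHC8 is removed, and the same total RNA libraries measure every other gene.

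All cells were mES cells of a Cast x 129S background that carried a TetOn promoter in place of the Xist promoter on the 129S allele and Bgl stem loops in Xist. The FKBP12 F36V degron, which dTAG-13 directs to degradation, was fused to METTL3 in clone 12D, to YTHDC1 in clone Y12H and to ZCCHC8 in clone Z12H, so that each of the 3 lines was 1 clone. The Ctrl arm received no dTAG-13, and the dTAG arm received it from 2 h before doxycycline. No untagged line given dTAG-13 was among the libraries, so effects of depletion and of dTAG-13 itself cannot be told apart. Every library, Ctrl included, came from cells given 1 µg/ml doxycycline for 20 h, followed by doxycycline with 500 µM 4sU for 4 h. Cells were then collected at once (0 min) or after 90 or 180 min in medium with 50 mM uridine, the chase. The 18 groups of 2 replicates gave 36 libraries, with 12 in each line, 6 of them Ctrl and 6 dTAG.

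Depth was 5274684 to 18652000 reads per library, lowest in the ZCCHC8 line at 5274684 to 10257631. The cells were grown on fibroblast feeders and preplated before the experiment. The 8 stem cell markers examined summed to 2363 to 3902 CPM, the reads of a gene scaled by library size, and all 8 were detected in every library. The 10 fibroblast markers summed to 34.6 to 69.6 CPM, with Fbn1 highest at 17.7 to 40.8 CPM. Thy1 was at 2.85 to 16.5, Col5a2 at 2.40 to 8.38, Col1a1 at 1.11 to 7.76 and Pdgfra at 2.07 to 6.77 CPM. Col1a2 was at 0.951 to 4.64 and Dcn at 0.0634 to 1.32 CPM. Col3a1, Postn and Lum were at 0 in some libraries and never above 0.921, 0.388 and 0.349 CPM. In bulk RNA of this kind, fewer cells with a transcript and less of it per cell cannot be told apart.

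SR proteins bind exons through RNA recognition motifs and recruit the spliceosome through domains rich in arginine and serine, and several of them also accompany mRNA to the cytoplasm. Kinases of the SRPK and CLK families phosphorylate these domains and so set where the proteins are and what they bind. Many SR genes limit their own expression through an exon or retained intron that carries an early stop codon, whose transcripts are kept in the nucleus or removed by nonsense-mediated decay. YTHDC1, the nuclear reader of N6-methyladenosine, is known to contact SRSF3 and SRSF10, METTL3 is the catalytic subunit of the writer of this mark, and ZCCHC8 belongs to the NEXT complex that passes nuclear RNA to the exosome.

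In the GENCODE M21 annotation (mm10), 9 of the 10 genes had at least 1 transcript marked for nonsense-mediated decay, and 8 of 10 had at least 1 with a retained intron. Of 9436 coding genes at 10 CPM or more, 30.8% and 63.0% did. Srsf11 held the most, with 3 decay and 11 retained-intron transcripts among 19, and Srsf10 had neither kind among its 10. The counts analysed here are per gene, so productive and unproductive transcripts were not separated. Srsf3 lies on chromosome 17, 29032628 to 29043373, plus strand. Srsf7 lies on the same chromosome, 80200080 to 80207307, minus strand. Srsf4 lies on chromosome 4, 131873617 to 131901706, plus strand, where Gm12992 overlaps it on the opposite strand and A930004J17Rik on the same strand. Srsf1, Srsf2 and Srsf11 also overlap other annotated genes, and reads of those stretches can count for either gene.

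Promoters are shown for Srsf3 and Srsf7, which were both higher in replicate 1 than in replicate 2 of the METTL3 line, and for Srsf4, which was lower there. Each is the 250 bases before the first start site of the gene listed by RefSeq (GRCm38.p6), 5′ to 3′ on the strand of the gene. They span chr17:29032410-29032659 (plus), chr17:80207306-80207555 (minus) and chr4:131873387-131873636 (plus). The RefSeq starts differ from the GENCODE ones, so the last bases of each window lie within the gene span given above. The TATAAA marked for Srsf3 is among them. Capitals mark 5 motifs that were searched on both strands. These were GGGCGG, known as the GC box, then CCAAT, known under its own letters, then CCGGAAG, the core bound by ETS factors, then CACGTG, known as the E box, and last TATAAA, known as the TATA box. Adjoining copies of a motif run together.
Srsf3: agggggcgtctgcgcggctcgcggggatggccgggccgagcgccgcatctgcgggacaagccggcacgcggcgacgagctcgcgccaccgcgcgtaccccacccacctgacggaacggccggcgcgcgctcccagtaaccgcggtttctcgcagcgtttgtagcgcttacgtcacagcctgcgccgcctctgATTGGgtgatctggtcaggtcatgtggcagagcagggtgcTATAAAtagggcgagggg
Srsf7: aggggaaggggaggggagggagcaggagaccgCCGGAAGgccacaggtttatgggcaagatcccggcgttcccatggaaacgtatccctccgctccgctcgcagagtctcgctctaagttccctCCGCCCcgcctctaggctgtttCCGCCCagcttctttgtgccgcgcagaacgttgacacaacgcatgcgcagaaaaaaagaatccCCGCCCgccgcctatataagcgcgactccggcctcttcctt
Srsf4: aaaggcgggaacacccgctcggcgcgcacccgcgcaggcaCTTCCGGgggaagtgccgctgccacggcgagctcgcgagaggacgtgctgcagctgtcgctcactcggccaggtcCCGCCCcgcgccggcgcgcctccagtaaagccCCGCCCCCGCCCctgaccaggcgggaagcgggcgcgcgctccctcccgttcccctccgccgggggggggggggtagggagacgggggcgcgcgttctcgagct
Over the 10 genes, GGGCGG was in 9 promoters, against 32.9% of 27025 promoters of this length, and CCGGAAG was in 4, against 7.05%. CCAAT was in 3 against 34.5%, TATAAA in 2 against 13%, and CACGTG in 0 against 6.05%. The Srsf3 window was the only one of the 10 without GGGCGG. A match of letters is a description of the window and not a measured binding site.

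The level of the 10 genes was compared per length, as CPM per kilobase of the gene length given by the authors, over the 18 Ctrl libraries. It spanned a 10.3-fold range. Srsf2, a largely nuclear SR protein, was highest at 268 ± 25.4, followed by Srsf1, the founding splicing factor of the family, at 197 ± 35.8 (SD, n = 18). Srsf6 (153 ± 21.7), Srsf5 (131 ± 16.7) and Srsf3 (125 ± 36.3) formed the middle of the order. Srsf7 (96.3 ± 29.7), Srsf11 (69.5 ± 6.90), Srsf10 (58.6 ± 8.19) and Srsf9 (50.5 ± 11.9) came next, and Srsf4 was lowest at 26.1 ± 8.35. The ranges of every pair of neighbours in this order overlapped. Within libraries, Srsf2 was above Srsf1 in 17 of 18, Srsf5 above Srsf3 in 13 of 18 and Srsf10 above Srsf9 in 12 of 18, while Srsf1 was above Srsf6 in 18 of 18 and Srsf9 above Srsf4 in 18 of 18. As reads, the members had 306 to 23743 per library.

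**Figure D1:**
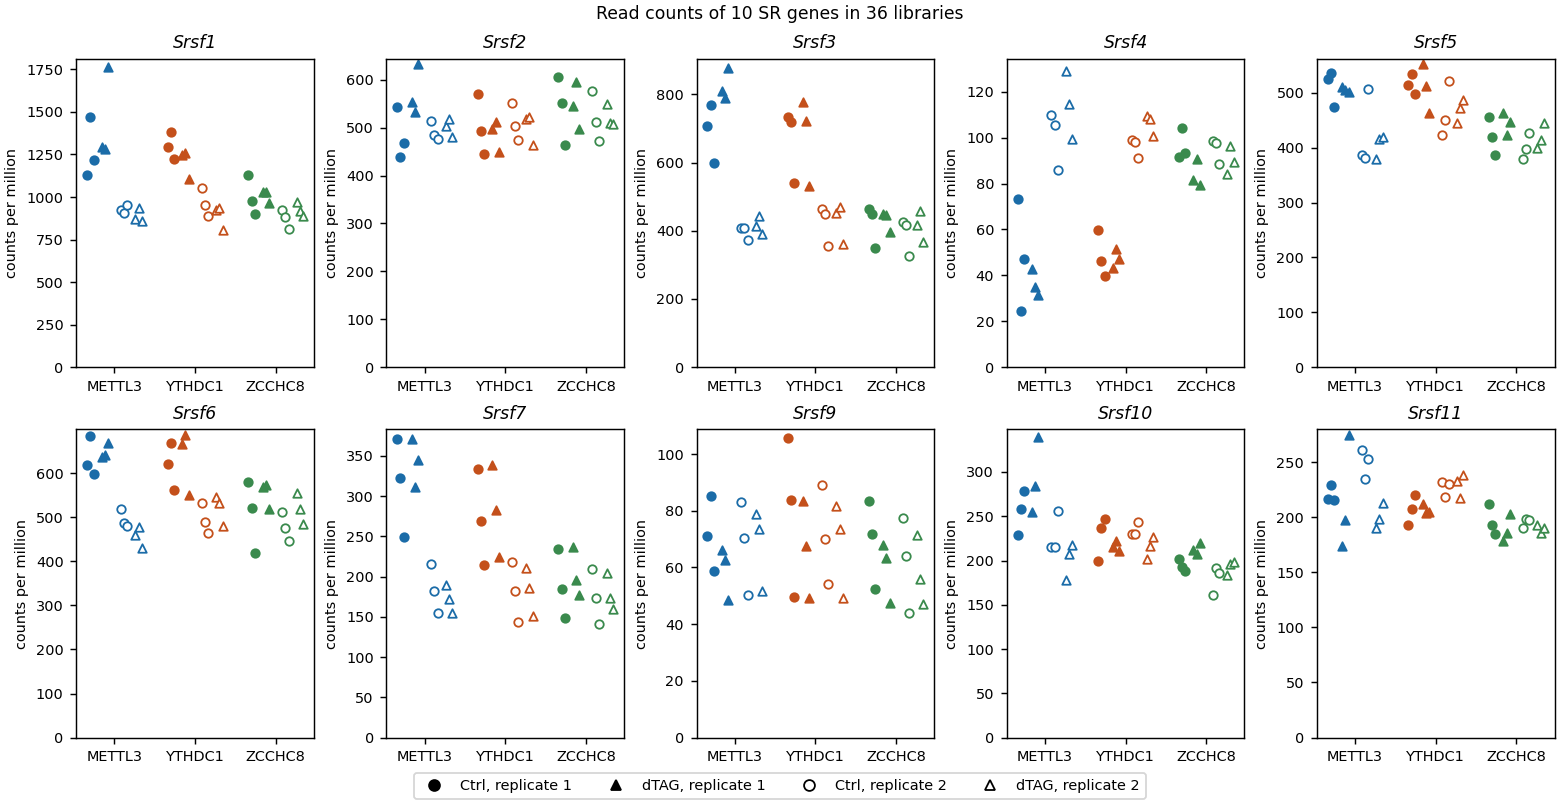
CPM of each SR gene in all 36 libraries (linear axis from 0), by line on the horizontal axis. Circles are Ctrl and triangles dTAG libraries, filled for replicate 1 and open for replicate 2, with 0, 90 and 180 min of chase from left to right. Srsf4 lies at 24.5 to 73.5 CPM in replicate 1 and 85.8 to 129 CPM in replicate 2 of the METTL3 line, and Srsf3 shows the opposite order.

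The share of newly made RNA differed widely among the members. The new-to-total ratio is the fraction of the RNA of a gene that the GRAND-SLAM model places in the pulse, taken here as the maximum of its posterior (MAP). At 0 min it was highest for Srsf4 in 11 of 12 libraries and lowest for Srsf9 in 12 of 12. In Ctrl libraries it was 0.819 ± 0.0377 for Srsf4, above on average 75.3% of the genes with at least 100 reads in every library, and 0.249 ± 0.0172 for Srsf9, above 16.9% of them (SD, n = 6, over 3 lines). The medians of those genes were 0.494 to 0.571.

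Between these ends some places of the order were fixed and others changed between libraries. Over the 12 libraries Srsf10 held places 1 to 4, Srsf5 places 2 to 4 and Srsf11 places 3 to 4. In Ctrl libraries Srsf10, which acts as a splicing repressor when dephosphorylated, was at 0.662 ± 0.0383, Srsf5 at 0.603 ± 0.0292 and Srsf11 at 0.577 ± 0.0365. Srsf2, at 0.515 ± 0.0194, held the fifth place of the order in 12 of 12 libraries. Srsf6 (0.474 ± 0.0245) lay above Srsf3 (0.423 ± 0.0499) and above Srsf7 (0.414 ± 0.0380) in 6 of 6 Ctrl libraries, but in dTAG libraries in 4 and 3 of 6. Srsf3 lay above Srsf7 in 5 of 6 Ctrl and 1 of 6 dTAG libraries, and in Ctrl their mean difference of 0.0087 was smaller than its SD of 0.0246. Srsf1, at 0.326 ± 0.0343, held the ninth place of the order in 12 of 12. The posterior intervals of single values from the 0.05 to the 0.95 quantile were 0.0109 to 0.107 wide.

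Loss of label over the chase was followed with the T-to-C rate, the conversions of a gene as a percentage of its T coverage. This rate is measured without the model of GRAND-SLAM, which estimated conversion anew in each library. For Srsf4, a large SR protein with a long serine-rich tail, the Ctrl rate at 0 min was 5.62% in replicate 1 and 6.96% in replicate 2 of the METTL3 line, 6.86% and 6.62% in those of YTHDC1, and 7.83% and 6.89% in those of ZCCHC8. At 180 min it was 2.54% and 2.68%, 2.64% and 2.37%, and 3.58% and 2.26%. All 6 values at 180 min lay below all 6 at 0 min.

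For Srsf5, whose mRNA is known to respond to growth signals, the Ctrl replicates of METTL3 had 4.53% and 5.08% at 0 min, those of YTHDC1 5.16% and 4.99%, and those of ZCCHC8 5.51% and 5.04%. At 180 min it was 1.81% and 1.67%, 1.93% and 1.34%, and 2.62% and 1.80%, again with no overlap. The rate at 180 min was 36.7 ± 6.94% of that at 0 min for Srsf5 and 39.4 ± 5.15% for Srsf4 (SD, n = 6). The medians over genes with at least 100 reads in every library were 59.0% to 82.4% in the same libraries, and each of the 12 values of these 2 members lay below that range. By the Ctrl slope of the log2 MAP ratio per h, many genes fell faster. Over the 3 lines 20.6% to 26.7% of genes fitted were steeper than Srsf4 and 22.4% to 30.5% steeper than Srsf5.

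Srsf9, a small SR protein close to SRSF1 in sequence, went the other way. Its Ctrl replicates of METTL3 had 2.08% and 2.04% at 0 min, those of YTHDC1 2.07% and 2.08%, and those of ZCCHC8 2.39% and 1.88%. At 180 min it was 2.60% and 2.62%, 2.77% and 2.60%, and 2.62% and 2.59%. The rate was higher at 180 than at 0 min in 12 of 12 pairs of libraries over both arms, and at 180 min it was 126 ± 9.59% of the 0 min rate in Ctrl (SD, n = 6) and 141 ± 16.5% in dTAG. The MAP ratio of Srsf9 moved the same way, with Ctrl slopes in log2 units per h of 0.20 (SE 0.058) for METTL3, 0.19 (SE 0.044) for YTHDC1 and 0.27 (SE 0.040) for ZCCHC8. Of the genes fitted for YTHDC1 and ZCCHC8, 92.5% and 91.1% had a lower slope.

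The other members fell between these. The rate left at 180 min was 53.0 ± 8.85% for Srsf10, 62.5 ± 8.18% for Srsf11 and 70.6 ± 9.45% for Srsf2. It was 78.9 ± 9.69% for Srsf6, 81.5 ± 15.8% for Srsf3, 84.6 ± 12.2% for Srsf7 and 93.6 ± 12.1% for Srsf1 (SD, n = 6). The rate was lower at 180 min in 12 of 12 pairs for Srsf2, Srsf4, Srsf5, Srsf10 and Srsf11. It was higher in 1 of 12 for Srsf3, Srsf6 and Srsf7 and in 4 of 12 for Srsf1. A rate is a share of all reads of a gene, so decay of unlabelled RNA raises it and new unlabelled RNA lowers it. These values describe the members, and no test was run on them.

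**Figure D2:**
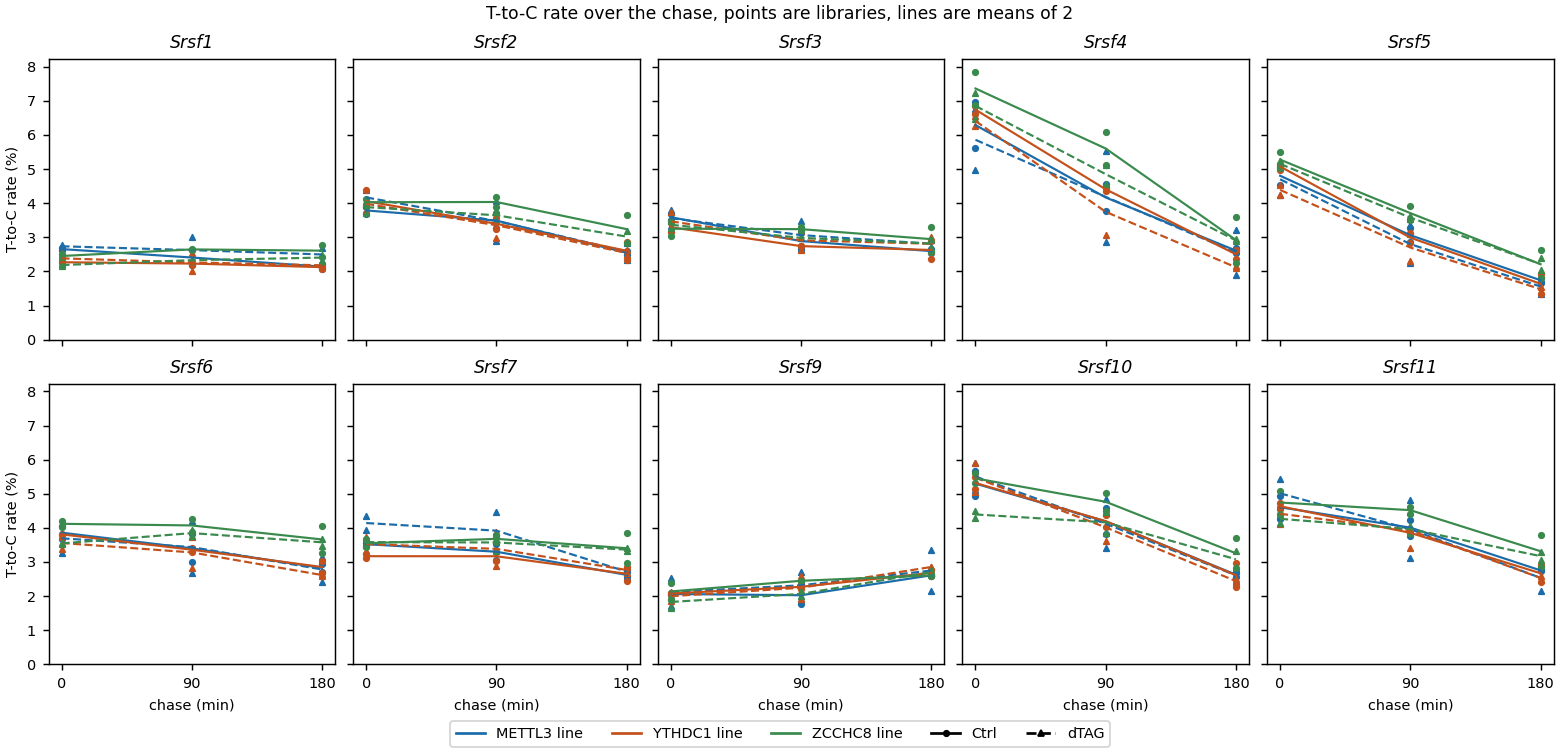
T-to-C rate (%) of each SR gene at 0, 90 and 180 min of uridine chase, with each library as a point and the mean of 2 replicates as a line, solid for Ctrl and dashed for dTAG, in colours for the 3 lines. Srsf4 and Srsf5 drop most steeply and Srsf9 is higher at 180 than at 0 min in every line.

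**Figure D3:**
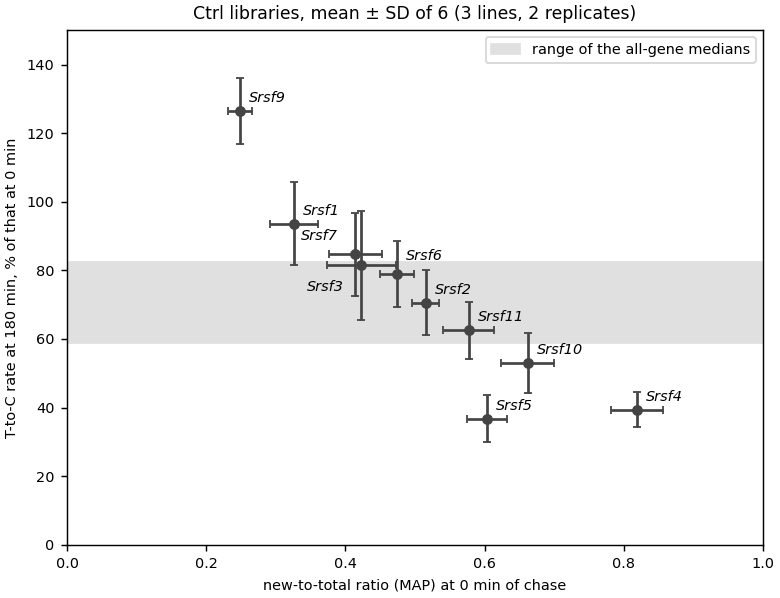
New-to-total ratio at 0 min against the T-to-C rate at 180 min as a percentage of that at 0 min, mean ± SD over 6 Ctrl libraries for each SR gene, with the range of all-gene medians in grey. Both axes use the 0 min libraries. Srsf9 lies at the upper left with 0.249 and 126%, and Srsf4 and Srsf5 lie lowest at 39.4% and 36.7%.

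The total reads of the members over the chase were then compared, 180 against 0 min with arm as a covariate, in each line. Srsf9 fell in all 3 lines. With METTL3 tagged it was at 66.0 to 83.0 CPM at 0 min and 48.4 to 58.9 CPM at 180 min, in the YTHDC1 line at 81.8 to 106 and 49.2 to 54.0 CPM, and in the ZCCHC8 line at 67.8 to 83.3 and 43.9 to 52.4 CPM (4 libraries each). The ranges did not overlap in any line. The log2 fold changes were -0.50 (SE 0.13, p adjusted in edgeR 0.0212), -0.76 (SE 0.090, p adjusted in edgeR 8.73e-05) and -0.65 (SE 0.071, p adjusted in edgeR 3.2e-08).

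Srsf9 was the only one of 10 members called lower in the METTL3 line, where 5.84% of 14413 genes were lower and 10.3% higher, and in the YTHDC1 line, where 18% of 14199 were lower and 23% higher. In the ZCCHC8 line 6 of 10 were lower and none higher, where 29.9% of 13962 genes were lower and 30.7% higher. Besides Srsf9 these were Srsf7, an export adaptor with a zinc knuckle, which fell by 0.50 on the log2 scale (SE 0.064), Srsf3, the smallest family member and also an export adaptor, by 0.29 (SE 0.057), Srsf6 by 0.26 (SE 0.058), Srsf2 by 0.24 (SE 0.058) and Srsf1 by 0.19 (SE 0.065). Their adjusted p in edgeR ran from 3.99e-07 to 0.0139.

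With the replicate as a block, which the same-numbered libraries warrant, the counts grew in the METTL3 and YTHDC1 lines. In the ZCCHC8 line the count stayed at 6 of 10. In the YTHDC1 line 6 of 10 were then lower (33.4% of all genes) and 1 higher (33.7%). The lower members were Srsf1, Srsf2, Srsf3, Srsf6, Srsf7 and Srsf9, with Srsf7 falling by 0.51 (SE 0.048, p adjusted in edgeR 6.74e-09) and Srsf3 by 0.36 (SE 0.045, p adjusted in edgeR 3.67e-07). The higher one was Srsf10, at 0.20 (SE 0.053, p adjusted in edgeR 0.00261). Srsf7 and Srsf9 were then lower in the METTL3 line (23.9% of all genes) and Srsf10 higher (23.3%), the last by 0.33 (SE 0.10, p adjusted in edgeR 0.0113). Srsf4, Srsf5 and Srsf11 did not pass the threshold in any line with or without the block, although Srsf4 and Srsf5 had the largest loss of label. With 1 replicate alone, the members called without replicate 1 were 5 for METTL3, 8 for YTHDC1 and 8 for ZCCHC8, where 52.5%, 61.7% and 57.2% of all genes were called. Without replicate 2 they were 3, 4 and 5, where 31.8%, 53.1% and 45.4% were.

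**Figure D4:**
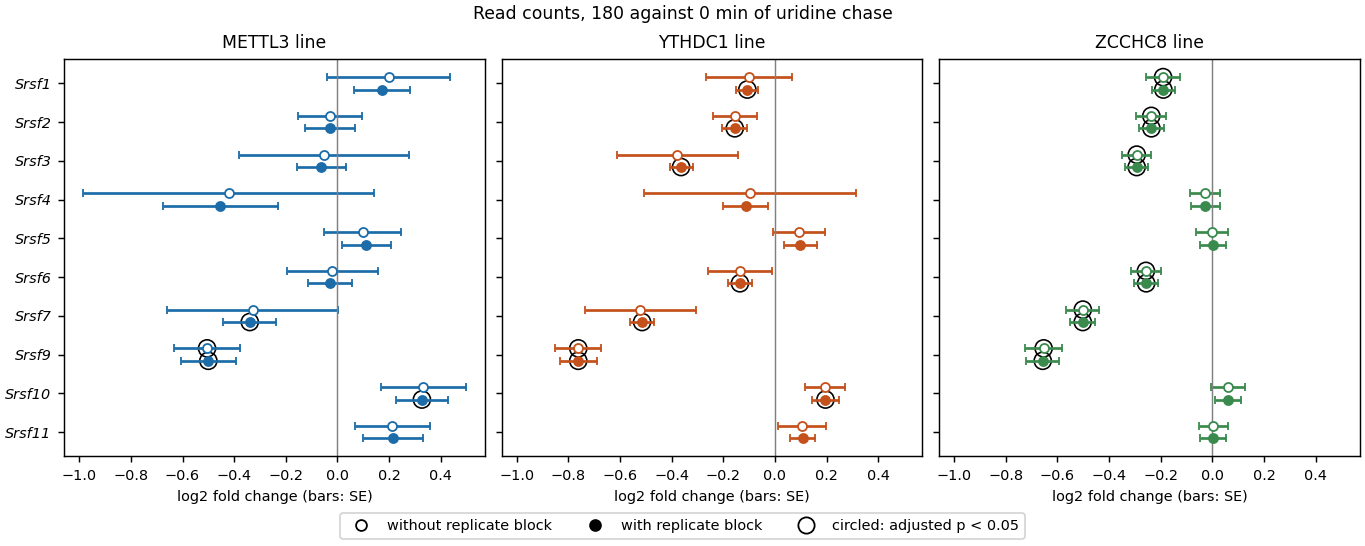
Log2 fold change of read counts, 180 against 0 min of chase, for each SR gene and line, with bars of 1 SE, open without and filled with the replicate block, and circles around values with an adjusted p under the threshold. Srsf9 is at -0.50 or below in every line without the block.

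Depletion of METTL3 did not change the read count of any member past the threshold (0 of 10 higher and 0 of 10 lower), where 11.3% of 14413 genes were higher and 8.8% lower. Depletion of YTHDC1 gave 0 of 10 in either direction, against 2.48% and 2.77% of 14199 genes. At an unadjusted p under 0.05 no member passed in either line. DESeq2 also called none in either. With 1 replicate alone, 3 members passed without replicate 1 (52.3% of all genes) and 2 without replicate 2 (40.1%) in the METTL3 line. For YTHDC1 these were 3 (25%) and 0 (9.58%). The members had a median log2 fold change of 0.035 (METTL3) and 0.0089 (YTHDC1), against 0.0056 and 0.0064 over all genes tested. SEs in these lines were wide for Srsf4 (0.46 and 0.34) and Srsf3 (0.27 and 0.19), which differed most between replicates.

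The largest value with METTL3 depleted was that of Srsf3, a log2 fold change equal to 0.21 (SE 0.27, p adjusted in edgeR 0.650). Its Ctrl libraries had a lowest, median and highest value of 373, 504 and 770 CPM and its dTAG libraries of 392, 617 and 876 CPM. It was higher in dTAG in 6 of 6 pairs of the same replicate and time, although the groups overlapped. The lowest value was that of Srsf11, at -0.18 (SE 0.12, p adjusted in edgeR 0.323), with 215, 232 and 261 CPM in Ctrl and 174, 198 and 275 CPM in dTAG, lower in 5 of 6 pairs.

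In the YTHDC1 line the largest value was that of Srsf4, at 0.093 (SE 0.34), and the lowest that of Srsf9, at -0.14 (SE 0.073, p adjusted in edgeR 0.349). Srsf1 had 891, 1138 and 1384 CPM in Ctrl and 806, 1019 and 1259 CPM in dTAG, lower in 6 of 6 pairs with overlapping groups. Without the block its log2 fold change was -0.11 (SE 0.14, p adjusted in edgeR 0.761). With the block it was -0.11 (SE 0.035, p adjusted in edgeR 0.0213), the only member of 10 called lower in that fit, where 14.1% of all genes were. SRSF3 and SRSF10 are known to contact YTHDC1. Their genes were at 0.029 (SE 0.19) and -0.095 (SE 0.063) without the block, and neither passed with it.

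With ZCCHC8 depleted, 2 of 10 members were called higher, near the 20.1% of 13962 genes called higher. None was called lower, where 19.5% of genes were. Srsf6 had a lowest, median and highest value of 420, 495 and 581 CPM in Ctrl and 484, 537 and 573 CPM in dTAG. It was higher in 5 of 6 pairs, and its log2 fold change was 0.17 (SE 0.047, p adjusted in edgeR 0.00602). Srsf10 had 161, 190 and 201 CPM in Ctrl and 184, 203 and 220 CPM in dTAG, higher in 6 of 6 pairs, with 0.16 (SE 0.053, p adjusted in edgeR 0.0164). The groups overlapped for both. Srsf10 was not called by DESeq2, and without replicate 2 neither was called, with 0 of 10 members past the threshold against 24.5% of all genes, while without replicate 1 there were 5, against 37%.

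With the replicate block 6 of 10 members were higher in the ZCCHC8 line, where 23.1% of all genes were, and none lower. Besides Srsf6 and Srsf10 they were Srsf7 at 0.12 (SE 0.039), Srsf3 at 0.11 (SE 0.037), Srsf5 at 0.11 (SE 0.041) and Srsf1 at 0.091 (SE 0.036), with p adjusted in edgeR from 0.0101 to 0.0356. Srsf4 and Srsf9 had the lowest values, -0.097 (SE 0.048) and -0.11 (SE 0.058) without the block, each lower in 5 of 6 pairs, and did not pass. The 8 stem cell markers held 3 higher genes in this line and the 6 fibroblast markers tested held 1, and their part in these values was not tested.

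**Figure D5:**
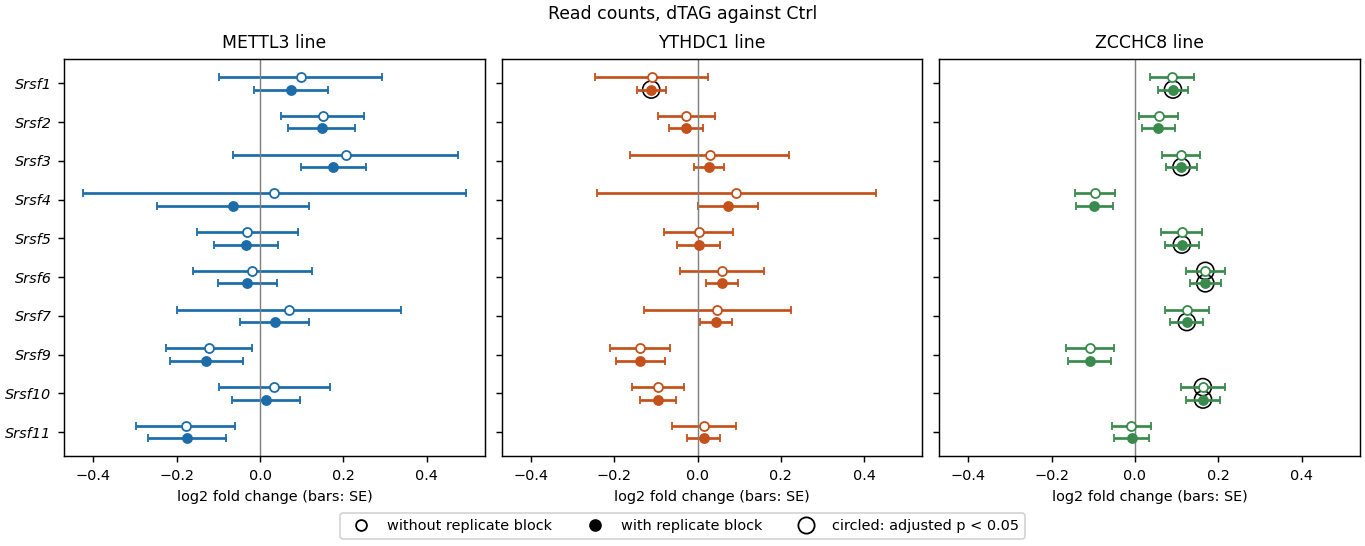
Log2 fold change of read counts, dTAG against Ctrl, for each SR gene and line, with bars of 1 SE, open without and filled with the replicate block, and circles around values with an adjusted p under the threshold. Without the block the bars are widest in the METTL3 line, up to 0.46 for Srsf4, and narrowest in the ZCCHC8 line.

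The responses were compared between lines over all 36 libraries. No member differed between METTL3 and YTHDC1 depletion (10.3% of 15101 genes higher and 10.3% lower), between ZCCHC8 and YTHDC1 depletion (7.19% and 7.2%) or between ZCCHC8 and METTL3 depletion (11.1% and 12.6%). The largest difference by size was that of Srsf4 between ZCCHC8 and YTHDC1, -0.24 (SE 0.50, p adjusted in edgeR 0.841), and no member had an unadjusted p under 0.05 in any of the 3. With the block, Srsf6 alone passed, higher in ZCCHC8 than in METTL3 depletion by 0.16 (SE 0.067, p adjusted in edgeR 0.0438), where 21.2% of all genes were higher. Srsf10 passed in no difference with or without the block. In the fits that left out replicate 1, 2, 2 and 6 members passed in the 3 differences in this order, where 43.1%, 29.2% and 42.3% of all genes did. Without replicate 2 none passed in any, where 25.2%, 11.9% and 27.8% of all genes did.

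Some members differed between replicates of the METTL3 and YTHDC1 lines. Srsf4 was at 42.4 ± 17.2 CPM in replicate 1 and 107 ± 14.6 CPM in replicate 2 of the METTL3 line, and at 47.9 ± 7.00 and 101 ± 6.80 CPM in the YTHDC1 line (SD, n = 6 libraries of 2 arms and 3 times). The ranges did not overlap in either line, and replicate 2 was higher 2.54-fold and 2.11-fold. In the ZCCHC8 line the values were 90.0 ± 8.97 and 92.5 ± 5.83 CPM.

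Srsf3 went the other way, at 759 ± 95.6 and 407 ± 24.0 CPM in the METTL3 line, 670 ± 107 and 426 ± 53.1 CPM in the YTHDC1 line and 426 ± 43.5 and 402 ± 47.4 CPM in the ZCCHC8 line. Srsf7 was higher in replicate 1 by 1.84-fold and 1.52-fold in the METTL3 and YTHDC1 lines and by 1.11-fold in the ZCCHC8 line. Srsf1 was higher by 1.50-fold, 1.35-fold and 1.12-fold and Srsf6 by 1.35-fold, 1.23-fold and 1.06-fold. In the METTL3 line the replicate ranges did not overlap for 5 of 10 members (Srsf1, Srsf3, Srsf4, Srsf6 and Srsf7), against 17.8% of 9510 genes at 10 CPM or more. In the YTHDC1 line they did not for 4 of 10, the same members without Srsf7, against 16.7%, and in the ZCCHC8 line for 0 of 10, against 0.484%. In these lines the stem cell markers summed to 2749 to 3902 CPM in replicate 1 and 2363 to 2968 CPM in replicate 2, and the fibroblast markers to 34.6 to 56.5 and 44.4 to 69.6 CPM. Their part in the replicate difference was not tested.

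The ratio of new to total RNA at 0 min was compared between arms with limma. In the METTL3 line 1 of 10 members was higher, where 2.48% of 7455 genes were higher and 25.3% lower. It was Srsf7, with a MAP ratio in replicates 1 and 2 of 0.468 and 0.447 in Ctrl and 0.584 and 0.510 in dTAG, a log2 difference of 0.25 (SE 0.084, p adjusted in limma 0.0491). Leaving out replicate 1 or replicate 2, using the T-to-C rate or taking a minimum of 20 reads ended this call. Dividing each ratio by the median of its library moved the median difference of all genes from -0.096 to 0.14, and 6 of 10 members were then higher, where 27.2% of all genes were. These were Srsf1, Srsf2, Srsf3, Srsf7, Srsf10 and Srsf11.

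Srsf7 also had the highest difference among the members in the other 2 lines. Its ratio was 0.372 and 0.422 in Ctrl and 0.445 and 0.462 in dTAG of the YTHDC1 line, a log2 difference of 0.20 (SE 0.084, p adjusted in limma 0.546). In the ZCCHC8 line it was 0.383 and 0.393 in Ctrl and 0.453 and 0.438 in dTAG, a log2 difference of 0.20 (SE 0.084, p adjusted in limma 0.441). The ratio and the T-to-C rate of Srsf7 were both higher in dTAG in 6 of 6 pairs over the 3 lines. In the ZCCHC8 line the rates of Ctrl and dTAG were nearly equal, at 3.6705% and 3.6715% in replicate 1. In replicate 2 they were 3.43% and 3.49%. The share of all genes higher in 6 of 6 pairs was not counted. Srsf2 was higher in 6 of 6 pairs by the ratio and in 4 of 6 by the rate.

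The reads of Srsf7 were also split by the ratio, which uses the same libraries and is no separate evidence. Its new reads (CPM times the MAP ratio) in Ctrl and dTAG were 174 and 216 CPM in replicate 1 and 96.6 and 96.7 CPM in replicate 2 of the METTL3 line. Its old reads were 198 and 154 CPM in replicate 1 and 119 and 93.0 CPM in replicate 2. Old reads were lower in dTAG in 6 of 6 pairs over the 3 lines for Srsf7, Srsf2 and Srsf9, with log2 ratios of -0.36 to -0.14, -0.29 to -0.085 and -0.32 to -0.075. For the other members they were lower in 1 to 4 of 6 pairs. The share of all genes lower in 6 of 6 pairs was not counted, so nothing particular to these members is read from it.

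The lowest member at 0 min was Srsf4 in the METTL3 line, with 0.783 and 0.873 in Ctrl and 0.722 and 0.740 in dTAG (log2 difference -0.18, SE 0.072, p adjusted in limma 0.0976). In the YTHDC1 line it was Srsf5 (-0.067, SE 0.067), and in the ZCCHC8 line Srsf10, with 0.630 and 0.638 in Ctrl and 0.545 and 0.546 in dTAG (-0.22, SE 0.079, p adjusted in limma 0.373). No member passed in the YTHDC1 line (0.0134% of 7455 genes higher and 0.0134% lower) or the ZCCHC8 line (0% higher and 0.0134% lower). At an unadjusted p under 0.05, Srsf7 passed in both of these lines, and Srsf10 in the ZCCHC8 line.

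The slope of the ratio over the chase was compared between arms. The ratio was estimated anew in each library and did not follow label loss alone. The median Ctrl slope of the genes fitted was -0.083 log2 units per h for METTL3, -0.11 for YTHDC1 and 0.041 for ZCCHC8. For Srsf6 in ZCCHC8 Ctrl libraries the mean ratio rose from 0.463 to 0.602 over 180 min, while the mean T-to-C rate fell from 4.12% to 3.66%. Fits without a call therefore do not show unchanged label loss. No member passed in the METTL3 line (0.362% of 8289 genes higher and 0% lower), the YTHDC1 line (0% and 0% of 8820) or the ZCCHC8 line (0% and 0% of 7251), and none had an unadjusted p under 0.05. The differences ran from -0.098 (SE 0.086, Srsf11) to 0.030 (SE 0.081, Srsf1) log2 units per h in the METTL3 line. They ran from -0.069 (SE 0.070, Srsf10) to 0.051 (SE 0.062, Srsf9) in the YTHDC1 line and from -0.070 (SE 0.053, Srsf7) to 0.062 (SE 0.068, Srsf10) in the ZCCHC8 line. With each ratio divided by its library median, Srsf11 alone was lower in the METTL3 line, by a difference of -0.13 (SE 0.032, p adjusted in limma 0.0301), where 5.27% of all genes were.

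The mRNAs of proteins that act with the SR family were counted in the same comparison of arms. Of all genes, 11.3% were higher and 8.8% lower with METTL3 depleted, 2.48% and 2.77% with YTHDC1 depleted, and 20.1% and 19.5% with ZCCHC8 depleted. With the replicate block these shares were 24.4% and 24.1%, 13.2% and 14.1%, and 23.1% and 22.8%. The lists hold few genes, and their counts are given beside these shares as a description, with nothing particular to a list read from them. All libraries had Xist induced by doxycycline, and the paper reports faster silencing of X-linked genes after METTL3 or ZCCHC8 depletion. Genes on the X chromosome were not set apart here, and the part of that silencing in these calls was not tested.

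In the ZCCHC8 line 2 of 12 genes for SR kinases, the SR phosphatase and SR import were higher and 3 lower. Clk1, a nuclear SR kinase, rose by 0.21 on the log2 scale (SE 0.053, p adjusted in edgeR 0.00243) and Tnpo3, the importin for SR proteins, by 0.14 (SE 0.043, p adjusted in edgeR 0.00954). Tnpo1 fell by 0.18 (SE 0.046) and Prpf4b by 0.15 (SE 0.046). After METTL3 depletion Srpk1, a cytoplasmic SR kinase, rose by 0.48 (SE 0.086, p adjusted in edgeR 0.00313) and the phosphatase gene Ppp1ca fell by 0.37 (SE 0.10), and in the YTHDC1 line Srpk2 fell by 0.33 (SE 0.077, p adjusted in edgeR 0.0295), with no other call among the 12 without the block. With it, 4 were higher and 1 lower for METTL3, 0 and 3 for YTHDC1, and 2 and 4 for ZCCHC8.

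Of 24 genes for SR-related splicing proteins, 3 were higher and 3 lower in the ZCCHC8 line. Rsrp1 rose by 0.32 (SE 0.054) and Rnps1 by 0.13 (SE 0.043), while Rsrc1 fell by 0.36 (SE 0.064) and Snrnp70, a protein of the U1 particle, by 0.15 (SE 0.047). After METTL3 depletion U2af1, the small subunit of the factor that reads the 3′ splice site, fell by 0.43 (SE 0.091, p adjusted in edgeR 0.00677) and was the only call without the block, and there was no such call in the YTHDC1 line. With the block 0 were higher and 5 lower for METTL3, 1 and 5 for YTHDC1, and 6 and 5 for ZCCHC8.

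The hnRNP and PTB genes, which often oppose SR proteins in splice site choice, held 6 higher and 1 lower of 28 in the ZCCHC8 line. Hnrnpdl rose by 0.23 (SE 0.046), Hnrnpu by 0.24 (SE 0.053) and Hnrnpa0 by 0.17 (SE 0.048). Hnrnph2 fell in all 3 lines, by 0.29 (SE 0.068) here, by 0.74 (SE 0.082) with METTL3 and by 0.58 (SE 0.097) with YTHDC1 depleted, with p adjusted in edgeR of 0.00177, 0.000234 and 0.00654. In the METTL3 line Hnrnpr (0.69, SE 0.093) and Hnrnpa0 (0.48, SE 0.15) rose and Pcbp2 fell by 0.64 (SE 0.13), and in the YTHDC1 line Ptbp2 rose by 0.39 (SE 0.096). With the block 3 were higher and 9 lower for METTL3, 2 and 8 for YTHDC1, and 8 and 2 for ZCCHC8.

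Of 15 genes for nonsense-mediated decay and the exon junction complex, 3 were higher and 3 lower in the ZCCHC8 line. The lower ones were Upf3b (-0.44, SE 0.062), Upf3a (-0.22, SE 0.050) and Magoh (-0.16, SE 0.055), and Smg1, the kinase of the pathway, was higher (0.19, SE 0.044). Smg8 rose by 0.70 (SE 0.081, p adjusted in edgeR 0.000285) in the METTL3 line and was the only call there without the block, and the YTHDC1 line had none. With the block 3 were higher and 4 lower for METTL3, 1 and 3 for YTHDC1, and 4 and 3 for ZCCHC8. Of 13 mRNA export genes, 3 were higher and 3 lower in the ZCCHC8 line, with Thoc2 falling by 0.44 (SE 0.050), Thoc7 by 0.33 (SE 0.069) and the helicase gene Ddx39b rising by 0.22 (SE 0.042). Ddx39b fell instead by 0.85 (SE 0.15) in the METTL3 line and by 0.38 (SE 0.066) in the YTHDC1 line. After METTL3 depletion Nxt1, the partner of the export receptor, rose by 1.52 (SE 0.20, p adjusted in edgeR 0.000673), while Ncbp1 fell by 0.54 (SE 0.084) and Thoc5 by 0.59 (SE 0.12). With the block 4 export genes were higher and 5 lower for METTL3, 1 and 3 for YTHDC1, and 3 and 3 for ZCCHC8.

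Depletion was of protein, so the transcripts of the tagged genes do not check it. Mettl3 was at 0.013 (SE 0.087) in its line and Zcchc8 at 0.070 (SE 0.068), and Ythdc1 mRNA rose by 0.60 (SE 0.095, p adjusted in edgeR 0.00487) in its line.

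Likeness of pattern was taken as Pearson's r over the 18 group means of log2 CPM, centred within a line, among 9510 genes at 10 CPM or more. The 18 groups come from 3 clones and the same 3 chase times, so r is a description. Srsf9 had the closest partners, Ctnnb1 (r = 0.992), Elac2 (0.985) and Gart (0.983). Srsf7 followed with Lck (0.968), Fermt2 (0.967) and Slc29a1 (0.962), and Srsf3 with Serbp1 (0.952), Rpl36al (0.911) and Parp9 (0.905). Srsf6 was most like Mycbp (0.944), Tram1 (0.913) and Rpl15, Srsf10 most like Tsr1 (0.944), Ufm1 (0.924) and Ipo7 (0.894), and Srsf4 most like Dcakd (0.942), Rnasek (0.912) and Mtss1l (0.909). Srsf2 was most like Tra2b (0.892), itself an SR-related splicing factor, C1qbp (0.872) and Ptbp3 (0.868). Srsf11 was most like Dync1li1 (0.865), Tnks2 (0.857) and Smc5 (0.843), and Srsf1 most like Rps24 (0.842), Skp1a (0.824) and Matr3 (0.816). Srsf5 had the loosest partners, Zfp938 (0.765), Ggnbp2 (0.754) and Elavl2 (0.724).

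Among the members themselves, Srsf7 and Srsf9 had the highest r, 0.877, and Srsf3 had 0.816 with Srsf6 and 0.807 with Srsf7. Srsf5 and Srsf10 had 0.694 with each other. Srsf10 had negative values with Srsf9 (-0.621), Srsf4 (-0.596) and Srsf7 (-0.576).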

How the data were processed

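Total RNA of 36 samples was sequenced after SLAM-seq. The authors removed reads aligning to ribosomal RNA, aligned the rest uniquely and end to end to mm10 with STAR 2.5.2b, allowing limited mismatches, and ran GRAND-SLAM, whose version, annotation release and use of strand were not given in the sources used here. The mismatch limit can remove strongly labelled reads. The deposited counts are raw reads per gene. The deposited new-to-total fraction (MAP or posterior mean) was estimated by the authors separately in each table of 1 line and replicate. The deposited conversion and T coverage values, a signal summed over reads, gave the T-to-C rate, with no background subtracted. Shape parameters and double-hit columns (180 columns) were not used.

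Groups and replicate numbers came from the labels. The column names drop the final 0 of the chase minutes and the first letter of 2 clones, and were matched to the labels on that basis. The members and the lists of related genes were chosen with earlier results of these data known. Counts were tested per line, 6 against 6 libraries, with arm and chase time as factors by the quasi-likelihood test of edgeR 4.0.16, with robust estimates, TMM factors and the filterByExpr filter. All p-values were adjusted over the genes of a fit after Benjamini and Hochberg and called under 0.05. All 10 members passed every filter. The SE is the log2 fold change divided by the square root of F. Differences between lines were contrasts over 36 libraries. Label was tested with limma 3.58.1 on log2 of the MAP ratio, for genes whose libraries all had 100 or more reads and a MAP of 0.02 or more, at 0 min over all lines and as the interaction of arm and hours of chase in each line. CPM used TMM factors over all libraries and likeness a pseudocount of 0.1. The study's reporting form describes RNA-seq replicates as independent clones or independent repeats of 1 clone. Here each line was 1 clone, so no p-value measures the spread between clones. Without the block, p-values rest on the spread among libraries of 2 repeats, which are not 6 independent repeats per arm. With the block, they rest on the spread left within the 2 repeats. Fits without a replicate hold no spread between repeats. Libraries of a line share a clone, and the 6 of an arm include 3 chase times.

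Same-numbered libraries of the arms deviated together, with correlations over genes of 0.622 to 0.778 at the 3 times of the METTL3 and YTHDC1 lines. In the ZCCHC8 line they did so only weakly, with 0.204 to 0.217. The reporting form states that the wells of a replicate came from 1 batch of cells. The numbers were therefore taken to pair the libraries, and the block is given where it changes a call. Replicates differed by more than sampling noise (chi-square per degree of freedom 2.45 to 77.9). From each list the text names up to 4 genes with the smallest adjusted p per line, besides the members, and for the label the highest and lowest member. Scripts were tested on simulated data. Alternatives were RLE factors, no filter (at least 1 read), the replicate block, DESeq2 1.42.0, single replicates and, for label, the T-to-C rate, the posterior mean, a minimum of 20 reads and scaling by the library median. Scripts ran in Python 3.11.15 (pandas 2.3.3, numpy 2.4.6, matplotlib 3.10.9) and R 4.3.3.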

Additional observations from a re-analysis of the deposited data

Results flagged for a closer look

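In fits over both replicates, 1 of 10 members passed in a difference between depletions, Srsf6 with the replicate block. It was then higher after ZCCHC8 than after METTL3 depletion with a log2 difference of 0.16 (SE 0.067, p adjusted in edgeR 0.0438). In that fit 21.2% of 15101 genes were higher. Without the block the difference was 0.15 (SE 0.15, p adjusted in edgeR 0.517) and did not pass the threshold.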

How the results depend on the processing

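RLE factors and the lack of a filter on low counts changed no count of members called by more than 1.5 times, and over all alternatives 66 counts stayed within that range and 24 did not. The replicate block, taken because same-numbered libraries deviated together, moved the members called over the chase from 1 to 3 in the METTL3 line and from 1 to 7 in the YTHDC1 line, and between arms from 0 to 1 in the YTHDC1 line and from 2 to 6 in the ZCCHC8 line. It moved the ZCCHC8 against METTL3 difference from 0 to 1 and changed no other count of members. Over all genes it moved the calls over the chase from 2322 to 6812 of 14413 in the METTL3 line and from 5821 to 9539 of 14199 in the YTHDC1 line. Between arms it moved them from 2898 to 6994 in the METTL3 line, from 746 to 3875 in the YTHDC1 line and from 5533 to 6405 of 13962 in the ZCCHC8 line. For the ZCCHC8 against METTL3 difference it moved them from 3576 to 6577 of 15101. DESeq2 called 1 member in the ZCCHC8 line. For the ratio at 0 min in the METTL3 line, the T-to-C rate and the minimum of 20 reads each gave 0 members and scaling by the library median 6, and that scaling gave 1 member for the slope.

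Fits without a replicate keep 1 library per arm and time, with the spread pooled over times. For read counts, the shares of all genes called in these fits are given with the same counts above. Members called between arms then ranged from 2 to 3 (METTL3), 0 to 3 (YTHDC1) and 0 to 5 (ZCCHC8), and over the chase from 3 to 5, 4 to 8 and 5 to 8. They ranged from 0 to 2 for each difference from YTHDC1, from 0 to 6 for ZCCHC8 against METTL3, and were 0 for the METTL3 ratio at 0 min.

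Of 150 pairs of member and comparison, 53 were called under at least 1 setting. Among these the sign turned, with no cause tested, in 19 fits. Most were fits without a replicate, given here as the value without replicate 1 and then without replicate 2. Between arms they were Srsf4 (0.18 and -0.24) and Srsf10 (-0.19 and 0.24) in the METTL3 line and Srsf4 (0.14 and -0.017) in the YTHDC1 line. Over the chase they were Srsf5 in the METTL3 (0.31 and -0.031), YTHDC1 (0.27 and -0.092) and ZCCHC8 (0.17 and -0.14) lines and Srsf10 in the ZCCHC8 line (0.17 and -0.018). Between lines they were Srsf6 for METTL3 against YTHDC1 (-0.18 and 0.044), and for ZCCHC8 against METTL3 Srsf1 (0.17 and -0.23), Srsf4 (-0.23 and 0.016), Srsf7 (0.17 and -0.084), Srsf10 (0.32 and -0.12) and Srsf11 (0.30 and -0.063). For the METTL3 ratio at 0 min they were Srsf1 (-0.018 and 0.12) and Srsf10 (-0.033 and 0.10). The other turns were Srsf4 between arms of METTL3 with the block (-0.064), Srsf5 over the chase of ZCCHC8 with no filter (0.0019) and with the block (0.0017), and Srsf3 by the T-to-C rate in the METTL3 ratio at 0 min (-0.013). Depth limits Srsf4 and Srsf9 most, the members with the fewest reads.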
